A study of Mus musculus with 11 samples.

Results

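Axon guidance ligands and receptors were described across mouse neurospheres and corpus callosum of 2 genotypes. Members were chosen by name alone: the semaphorins of classes 3 to 7, the A, B, C and D plexins, the neuropilins, the A and B ephrins and Eph receptors, the Slits and Robo receptors, the numbered netrins, the Unc5 receptors and Dcc. The rule found 69 of the 24411 gene symbols counted: 20 semaphorins, 9 plexins, 2 neuropilins, 8 ephrins, 14 Eph receptors, 3 Slits, 4 Robo receptors, 4 netrins and 5 netrin receptors. The rule itself uses no expression value, though it was set with earlier results of these data known.

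Growing axons and migrating cells read these cues at their surface. Secreted and membrane-bound semaphorins act through plexins, with neuropilins as co-receptors for most of the secreted class 3. Ephrins are held in the membrane of one cell and bind Eph receptor tyrosine kinases on a neighbour, so that both cells can signal. Slits repel axons through Robo receptors, and netrins attract through Dcc or repel where Unc5 receptors take part. In the adult brain many of the same genes remain active in neurons, oligodendrocyte lineage cells and the subventricular zone (SVZ), where Slits and ephrins are known to affect neuroblast migration and stem cell behaviour.

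Total RNA was sequenced from 11 libraries, all from mice aged 8 to 10 weeks. Neurospheres, floating clusters of stem and progenitor cells, were grown for 1 week from dissociated SVZ cells in medium holding EGF at 20 ng/ml and heparin at 2 ug/ml. They came from wild-type mice (n = 3) and from mice labelled Bmal1-/- (n = 3). Corpus callosum, the tract of myelinated axons between the hemispheres, was dissected from wild-type mice (n = 3) and from mice labelled Bmal1-/- (n = 2). Bmal1 (Arntl) encodes a transcription factor of the circadian clock. The labels do not give the part of the gene removed, the time of day, the sex or whether animals were pooled. Nor do they say that replicates are separate animals or separate cultures. A p-value here therefore reflects the spread among these libraries alone, and part of it may be technical.

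Gene counts summed to 17450270 to 19717848 per library. Levels are CPM, the counts scaled to an equal library total, on a single TMM scale across the 11 libraries, and genes are compared with each other only per kb of their longest transcript. Arntl itself did not check the genotype labels: it was at 38.2 to 49.4 CPM in wild-type and 40.5 to 48.9 CPM in Bmal1-/- neurospheres, and at 32.5 to 39.3 and 32.3 to 40.3 CPM in callosum. Genotype is therefore given as labelled throughout. The sources differed in their markers: the summed level of 12 mature neuron markers was 758 to 912 CPM in wild-type neurospheres and 14151 to 19005 CPM in wild-type callosum. That of 10 neural stem and progenitor markers was 4075 to 4910 CPM and 325 to 431 CPM. The 10 mature oligodendrocyte markers, which define the tract, summed to 1924 to 2012 CPM and 22234 to 33415 CPM. The 12 striatal neuron markers summed to 1977 to 5378 CPM in wild-type and 1599 to 2047 CPM in Bmal1-/- callosum. One library stood apart. In Bmal1-/- neurosphere replicate 1, long transcripts were low and 22.6% of reads were unmapped, against 13.7% to 16.2% in the 5 other neurosphere libraries.

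The first comparison asked where these genes are expressed in wild-type mice. Of the 69 members, 44 were higher and 14 lower in callosum than in neurospheres by edgeR's quasi-likelihood test (adjusted p under 0.05 over all genes tested). That is 84.1% of members, against 85.8% of the 14733 genes tested, so the share called in either direction was near the background. DESeq2 called 60 of the 69 members, against 85.1% of all genes, and 60 had an unadjusted edgeR p under 0.05 (87%, against 86.5% of all genes). By direction, 63.8% of members were called higher in callosum and 20.3% lower, against 42% and 43.8% of all genes. The median log2 fold change, callosum over neurospheres, was 1.21 for members and -0.06 for all genes tested. The libraries of both sources did not overlap for 42 members higher (60.9%) and 15 lower (21.7%) in callosum, against 42.3% and 45.4% of all genes. Part of this lean was set by the count filter: all 69 members passed it in callosum, but 62 in neurospheres. Epha1, Epha6, Epha8, Ntn5, Robo4, Sema3g and Slit3 entered this comparison only through their callosum counts, and each was called higher there. Summed over members, the level per kb was 571 ± 27.7 CPM per kb in neurospheres and 1247 ± 26.1 CPM per kb in callosum (SD, n = 3 each). Cell makeup, library preparation and source cannot be told apart here, and in bulk RNA fewer cells of a type cannot be told apart from less RNA per cell.

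**Figure D1:**
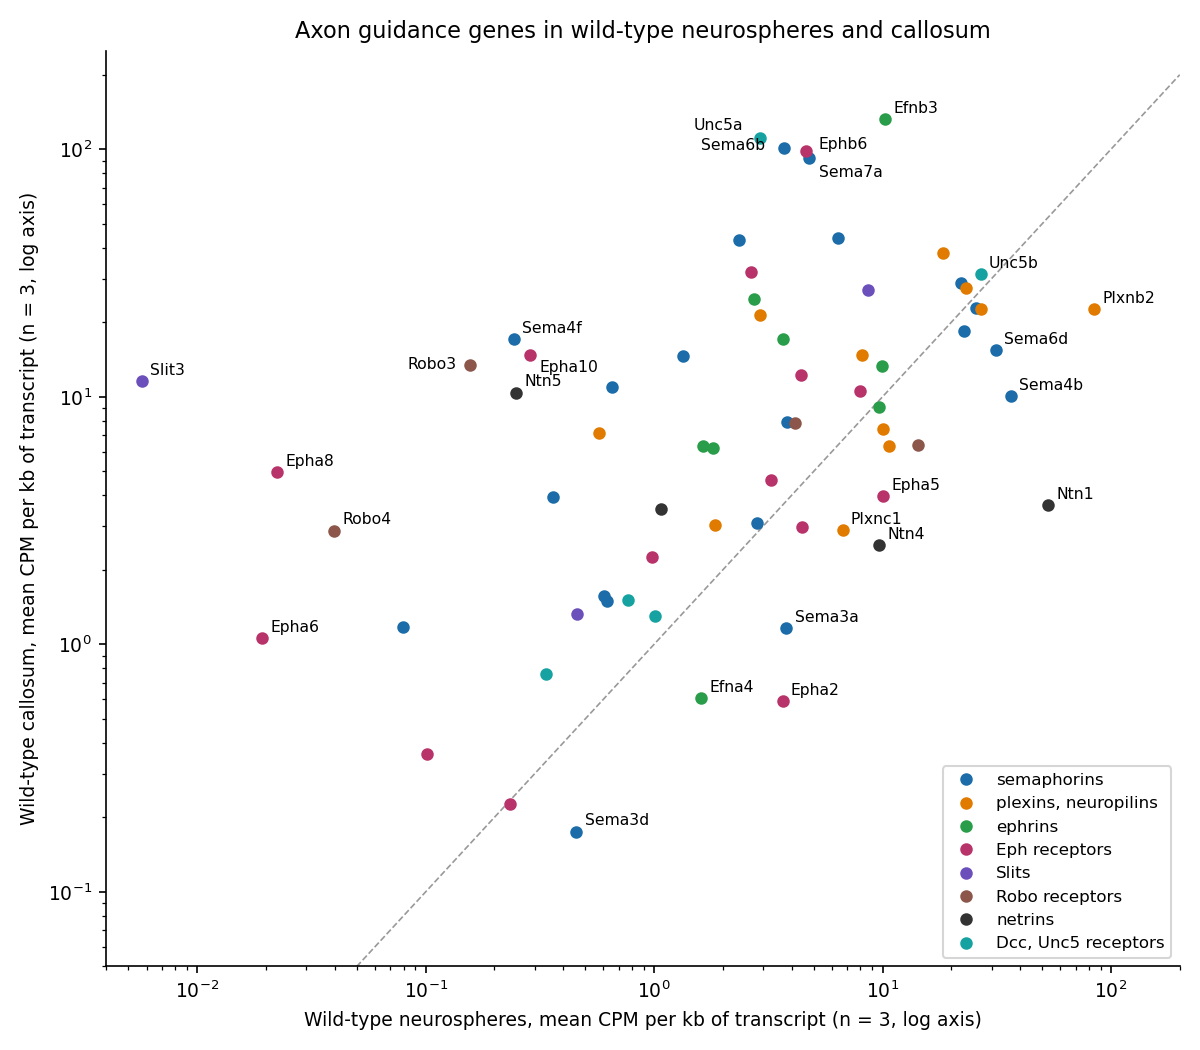
Mean level of each of the 69 members in wild-type neurospheres (x axis) and wild-type corpus callosum (y axis), both in CPM per kb of transcript on log axes; each point is 1 gene, coloured by family, and the dashed line marks equal levels. Unc5a, Sema6b, Ephb6, Sema7a and Efnb3 stand highest in callosum, while Plxnb2 and Ntn1 lie to the right, highest in neurospheres.

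Among semaphorins, 13 of 20 were higher and 4 lower in callosum (65% and 20%, against 42% and 43.8% of all genes). The same shares of all genes apply to each family count below. Sema6b, a transmembrane ligand of A plexins, was at 12.1, 11.99 and 17.6 CPM in neurospheres and 401, 324 and 411 CPM in callosum. The groups were far apart, and the log2 fold change with its SE, as for each such pair of values from here on, was 4.81 ± 0.19 (adjusted p = 1.73e-08, edgeR). Sema7a, the GPI-anchored semaphorin, was at 14.7, 15.3 and 17.1 CPM against 324, 273 and 313 CPM (4.32 ± 0.12, edgeR adjusted p = 4.1e-09). Sema4f, a transmembrane class 4 member, was near 1 CPM in neurospheres, at 1.31, 0.915 and 0.763 CPM, and reached 80.5, 60.0 and 69.6 CPM in callosum, 6.17 ± 0.21 higher on the log2 scale. Sema4d, the ligand of plexin B1, was also higher, by 2.83 ± 0.11.

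The 4 semaphorins lower in callosum were Sema4b, Sema6d, Sema3a and Sema3d. Sema4b was at 154, 132 and 145 CPM in neurospheres and 43.6, 36.9 and 39.0 CPM in callosum (-1.80 ± 0.11, edgeR adjusted p = 2.63e-07). Sema6d was at 241, 188 and 175 CPM against 84.1, 116 and 98.6 CPM, with no overlap (-0.97 ± 0.16). Sema3a, a secreted repellent, differed by -1.66 ± 0.21. Sema3d, another secreted class 3 member, was low in both sources, at 1.94 to 3.41 CPM and 0.889 to 1.46 CPM (-1.33 ± 0.33). Per kb, the 20 semaphorins summed to 170 ± 6.99 CPM per kb in neurospheres and 439 ± 20.0 CPM per kb in callosum. Sema4g, Sema5a and Sema6a did not pass the test.

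Their receptors had closer sums: the plexins and neuropilins summed to 194 ± 13.4 CPM per kb in neurospheres and 174 ± 10.6 CPM per kb in callosum. Of 11, 5 were higher and 3 lower in callosum (45.5% and 27.3%, against 42% and 43.8% of all genes). Plxnb2, a plexin B known from cortical and cerebellar progenitors, was the highest member per kb in neurospheres, at 84.5 ± 5.87 CPM per kb. It was at 522, 532 and 592 CPM there and at 144, 148 and 147 CPM in callosum (-1.86 ± 0.10, edgeR adjusted p = 1.15e-07). Plxnc1, the Sema7a receptor, was lower (-1.16 ± 0.15), opposite in direction to its ligand. Plxna4 (3.67 ± 0.14) and Plxnb3 (2.92 ± 0.16) were higher in callosum. The neuropilins went opposite ways: Nrp1 was at 40.3, 38.7 and 37.8 CPM in neurospheres and 19.3, 27.0 and 22.8 CPM in callosum (-0.71 ± 0.14), and Nrp2 differed by 0.76 ± 0.18.

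Ephrins summed to 41.3 ± 2.19 CPM per kb in neurospheres and 210 ± 25.4 CPM per kb in callosum, with 6 of 8 higher and 1 lower. Efnb3, a transmembrane ephrin known as a midline barrier to corticospinal axons, had the highest level per kb of any member in callosum, 132 ± 29.1 CPM per kb. It was at 23.0, 33.7 and 41.0 CPM in neurospheres and 330.2, 515 and 417 CPM in callosum (3.74 ± 0.24, edgeR adjusted p = 3.69e-07). Efna3 differed by 3.22 ± 0.18. Its chromosome 3 neighbours went separate ways, Efna1 being higher (1.99 ± 0.21) and Efna4 lower (-1.36 ± 0.38). These 3 genes lie in a row, with 32947 bases between Efna1 and Efna3 and 10453 bases between Efna3 and Efna4 (RefSeq, GRCm38.p6). Efnb2, a transmembrane ephrin, was at 55.4, 38.7 and 44.0 CPM and 48.9, 42.3 and 39.3 CPM and did not pass the test (-0.04 ± 0.15).

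Eph receptors showed a similar sum, 42.7 ± 2.99 against 189 ± 15.4 CPM per kb, with 9 of 14 higher and 3 lower in callosum. Ephb6, which lacks kinase activity, was at 13.9, 18.3 and 20.0 CPM in neurospheres and 391.6, 318 and 402 CPM in callosum (4.46 ± 0.17, edgeR adjusted p = 1.51e-08). Epha10, the other kinase-inactive member, was low in neurospheres, at 1.22 to 1.46 CPM, and at 49.2 to 90.0 CPM in callosum (5.73 ± 0.26). It has an exon overlapped on the opposite strand by 1700125G02Rik, which is also counted. Epha8 had 3, 2 and 2 counts in the neurosphere libraries and 313, 410 and 311 counts in the callosum libraries. Over the groups that is a ratio of 221, with a 95% counting interval of 107 to 552, which covers counting error only. Epha6 had 5 counts in all in neurospheres and 183 in callosum, a ratio of 54.9 with an interval of 23.1 to 171. Epha2 and Epha5, both A-class receptors, went the other way. Epha2 was at 18.9, 12.6 and 11.4 CPM in neurospheres and 2.06, 2.78 and 2.05 CPM in callosum (-2.59 ± 0.26). Epha5 was at 59.4, 78.1 and 83.0 CPM against 31.3, 25.5 and 30.6 CPM (-1.29 ± 0.15).

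Each of the 3 Slits was called higher in callosum, where 42% of all genes were, and 3 genes are too few to read as a share. Slit3 was close to absent from neurospheres: its counts were 0, 0 and 2 there and 1001, 870 and 794 in callosum. The ratio over the groups was 1997 with a 95% counting interval of 552 to 16498. Slit1, the most abundant Slit per kb in both sources, was at 30.3, 55.2 and 60.9 CPM and 164, 145 and 150.2 CPM (1.70 ± 0.22), and Slit2 differed by 1.58 ± 0.22. Among the receptors, Robo1 was lower in callosum, at 95.8, 111 and 117 CPM against 54.0, 50.4 and 39.9 CPM (-1.12 ± 0.13). Robo2, its close relative, was higher (0.96 ± 0.17). Robo3, the divergent family member that governs hindbrain commissural crossing, was at 1.22, 0.320 and 0.808 CPM in neurospheres and 86.8, 49.0 and 66.6 CPM in callosum (6.46 ± 0.36). Robo4, known from endothelium, lies 2021 bases from Robo3 on chromosome 9. It had 13 counts in neurospheres and 633 in callosum, a ratio of 73.0 with an interval of 42.4 to 138. The 8 endothelial markers summed to 11.8 to 12.8 CPM in wild-type neurospheres and 158 to 223 CPM in wild-type callosum, and their part in the Robo4 difference was not tested.

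The summed level of the netrins was lower in callosum, at 63.9 ± 0.752 CPM per kb in neurospheres and 20.1 ± 3.31 CPM per kb in callosum. Ntn1, the founding guidance netrin, carried most of this. It was at 306, 307 and 320.3 CPM in neurospheres and 21.8, 19.6 and 22.9 CPM in callosum, with no overlap (-3.81 ± 0.11, edgeR adjusted p = 4.1e-09). Ntn4, which is found in basement membranes, was lower too, at 40.3, 34.2 and 30.8 CPM against 8.19, 10.4 and 8.89 CPM (-1.89 ± 0.15). The other two netrins were higher in callosum: Ntn3 by 1.76 ± 0.20, and Ntn5 with 29 counts in neurospheres and 806 in callosum, a ratio of 41.7 with an interval of 28.8 to 62.6. An exon of Ntn5 is overlapped on the opposite strand by Sec1, which is also counted. In counts that ignore strand, reads overlapping both genes are ambiguous and enter neither, so Ntn5 may be undercounted. The same holds for Epha1, Epha10, Ephb4 and Unc5a, which are also overlapped by a counted gene.

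Their receptors went the other way, summing to 31.9 ± 3.54 CPM per kb in neurospheres and 145 ± 10.7 CPM per kb in callosum. Unc5a, a repulsive netrin receptor, made up most of the callosum sum. It was at 12.4, 11.1 and 11.3 CPM in neurospheres and 507, 385 and 433 CPM in callosum (5.30 ± 0.15, edgeR adjusted p = 3.7e-09). Unc5a has an exon overlapped on the opposite strand by Hk3, which is also counted. Unc5b was high in both sources, at 156, 140 and 178 CPM and 152, 207 and 193 CPM. It was the fifth highest member per kb in neurospheres, at 26.9 ± 3.30 CPM per kb, and did not pass the test (0.27 ± 0.14, edgeR adjusted p = 0.103). Dcc, the attractive receptor, was low in both, at 6.13, 10.5 and 14.7 CPM and 11.7, 15.4 and 13.2 CPM (0.41 ± 0.28, edgeR adjusted p = 0.194). Unc5c and Unc5d were higher in callosum, by 1.02 ± 0.19 and 1.21 ± 0.33.

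**Figure D2:**
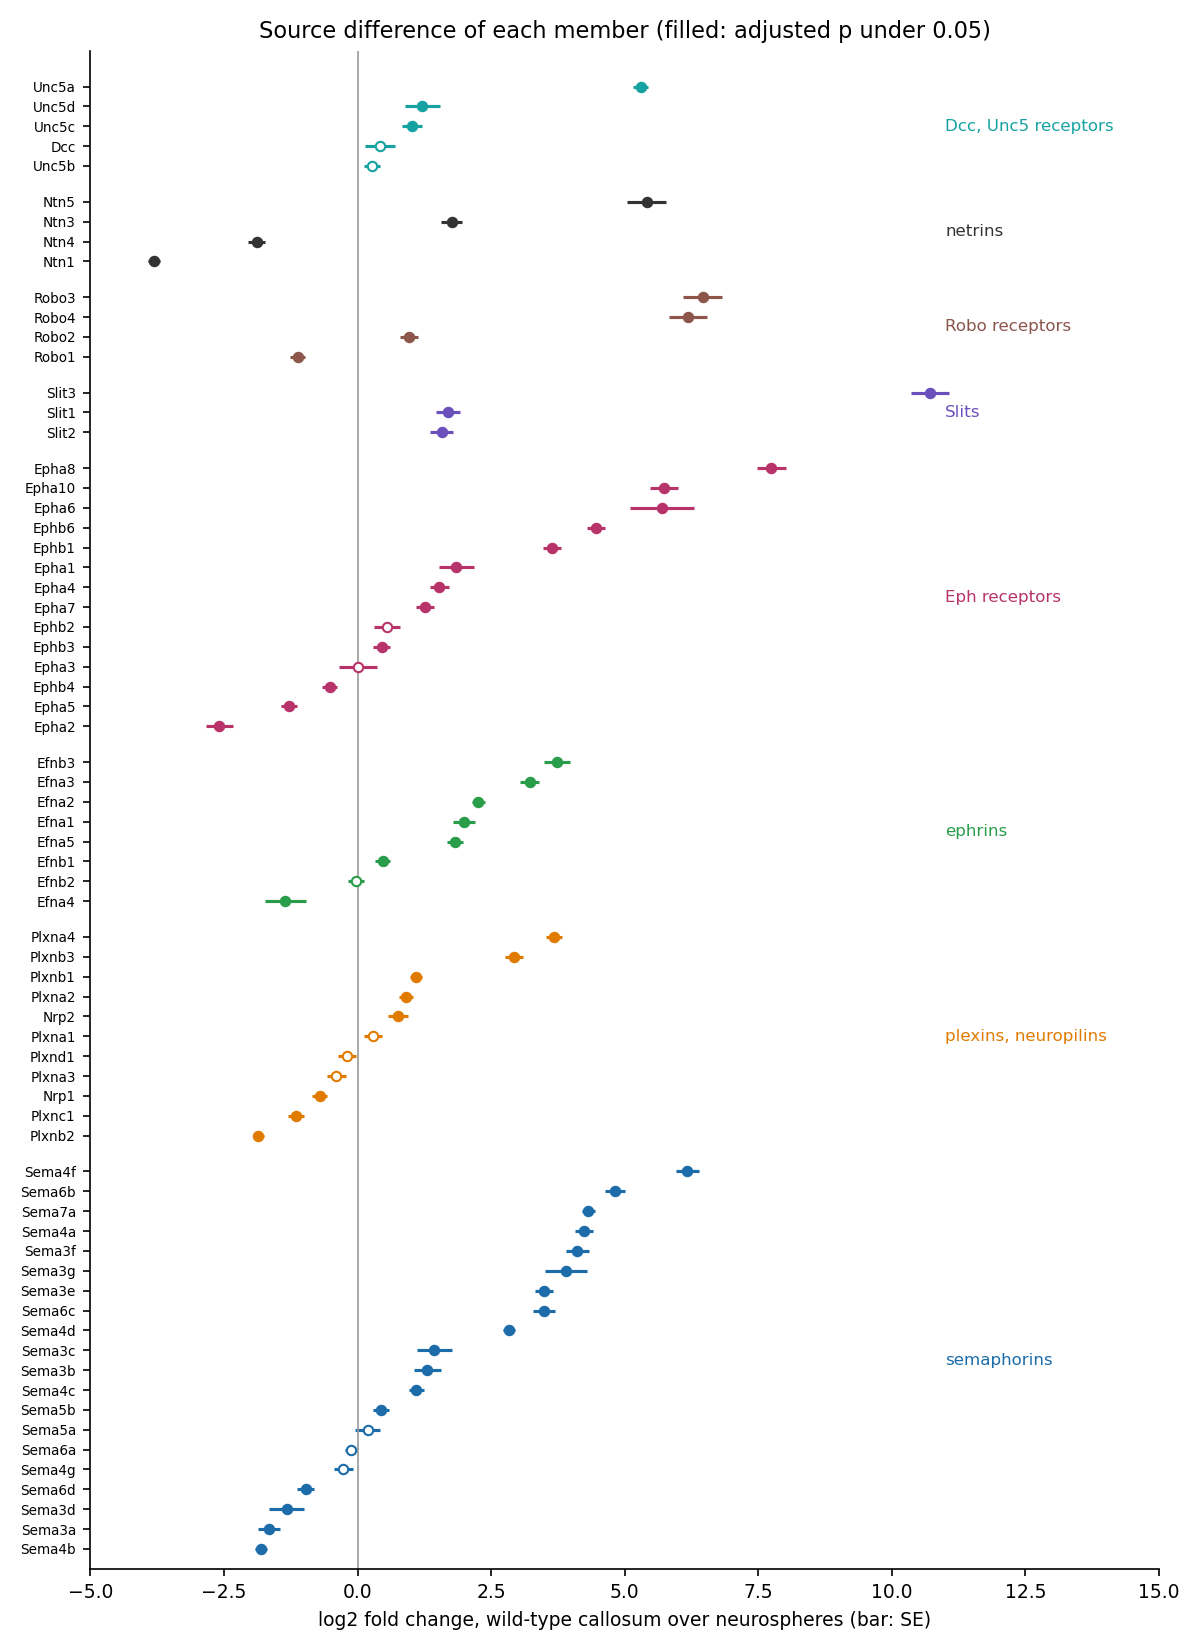
Log2 fold change of each member, wild-type callosum over wild-type neurospheres (n = 3 each), with its standard error as a bar; filled points passed edgeR's test at an adjusted p under 0.05 and open points did not. The values run from -3.81 for Ntn1 to 10.7 for Slit3, whose fitted value rests on 2 counts in neurospheres and is no bound.

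Which members differ by genotype in the callosum was asked next. One of 69 was called by edgeR, Epha8, which was lower in Bmal1-/- callosum. That is 1.45% of members against 0.909% of the 14198 genes tested, 0.521% of which were called higher and 0.387% lower, so a single call gives no result about the family. At an unadjusted p under 0.05 there were 9 members, 13.0% against 13.9% of all genes. DESeq2 called 4, against 2.33% of all genes, and limma-voom called 0, against 108 of the 14198 genes tested. The 2 Bmal1-/- libraries lay above the 3 wild-type libraries for 10 members (14.5%, against 13.7% of all genes) and below them for 12 (17.4%, against 18.7%). The median log2 fold change was 0.01 for members and -0.01 for all genes.

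Epha8, an A-class Eph receptor of chromosome 4 (136929419 to 136956859, minus strand, GRCm38.p6), was at 21.5, 27.2 and 21.3 CPM in wild-type and 7.82 and 12.4 CPM in Bmal1-/- callosum. Both Bmal1-/- libraries were below every wild-type library. Its difference was -1.19 ± 0.21 on the log2 scale (adjusted p = 0.0431, edgeR). The call ended without any 1 of the wild-type libraries (adjusted p = 0.0608, 0.119 and 0.181 without replicate 1, 2 and 3) or without Bmal1-/- replicate 1 (-0.89, adjusted p = 0.206), and it held without Bmal1-/- replicate 2 (-1.55, adjusted p = 0.0178). With the mean level of the 12 striatal neuron markers as a covariate it was -0.91 (adjusted p = 0.155). Those markers had a median log2 fold change of -1.21 between genotypes, with 0 of 12 called. Their sums overlapped between genotypes, at 1977 to 5378 CPM in wild-type and 1599 to 2047 CPM in Bmal1-/- callosum. Some other marker sums did separate the genotypes. The 10 astrocyte markers summed to 3129 to 3372 CPM in wild-type and 4643 to 4975 CPM in Bmal1-/- callosum, with 1 called higher and 1 lower. The 10 microglia markers summed to 547 to 592 CPM against 598 to 642 CPM, and the 6 choroid plexus markers to 23.3 to 181 CPM against 10.5 to 14.0 CPM, with 0 called in either list. A sum is weighted to its most abundant genes. The median log2 fold change was 0.00056 for the astrocyte, 0.16 for the microglia and -1.79 for the choroid plexus markers tested. The part of these markers in the members' differences was not tested. Ephb2, which lies 93092 bases from Epha8, did not pass the test (0.06 ± 0.13, adjusted p = 0.855).

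The Clock and Bmal1 proteins bind as a pair to the E-box CACGTG, so the letters before the start sites were read. RefSeq promoter windows of 250 bases were found for 59 members, 75 windows in all. The E-box, which reads the same on both strands, occurred in 4 of the 75 (5.33%), against 6.02% of the 32851 windows of all genes. The 4 genes were Epha8, Robo2, Sema4b and Sema6d. The stretch around the motif, up to 40 bases on each side within the window, is shown for the 3 where it lies outside the exons annotated in GENCODE M21, with the E-box in capitals. All are written 5′ to 3′ along the gene.
Epha8, chr4:136956919-136957004, minus strand: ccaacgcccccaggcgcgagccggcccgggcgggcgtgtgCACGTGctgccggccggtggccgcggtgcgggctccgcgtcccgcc
Robo2, chr16:75447294-75447351, minus strand: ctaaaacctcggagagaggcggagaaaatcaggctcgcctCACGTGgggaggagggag
Sema6d, chr2:124089906-124089968, plus strand: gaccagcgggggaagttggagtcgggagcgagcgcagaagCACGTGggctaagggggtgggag
The motif begins 148 bases before the start site of Epha8, 18 before that of Robo2 and 23 before that of Sema6d. For each gene this is the start site of that window. The Epha8 window (136956817 to 136957066) holds the RefSeq bound of the gene at 136956859, so the outermost start lies nearer the motif. The motifs of Robo2 and Sema6d lie within the bounds of the gene in RefSeq, past its outermost start, while that of Epha8 lies outside them. Robo2 has 3 promoter windows and Sema6d has 2, of which 1 each holds the motif. In callosum, the log2 fold changes of the 4 genes were -1.19 ± 0.21 for Epha8, -0.23 ± 0.12 for Robo2, -0.22 ± 0.13 for Sema4b and 0.08 ± 0.15 for Sema6d, and the last 3 did not pass the test. The element bound by ROR and REV-ERB receptors, read as A, A, any 2 letters and then AGGTCA, was searched on both strands too. It was in 1 of the 75 windows (1.33%, against 1.05% of all), that of Nrp1, whose callosum log2 fold change was -0.15 ± 0.17.

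The other members with the smallest p in callosum did not pass edgeR's test. Efnb1, the X-linked transmembrane ephrin, was at 40.1, 40.4 and 50.3 CPM in wild-type and 60.7 and 70.7 CPM in Bmal1-/- callosum, with no overlap (0.61 ± 0.13, adjusted p = 0.0905). DESeq2 called it (adjusted p = 0.0115). Sema4a, a transmembrane semaphorin, was at 133, 139 and 140 CPM against 188 and 176 CPM, again with no overlap (0.42 ± 0.09, edgeR adjusted p = 0.0912). Sema4g was at 90.9, 80.0 and 79.8 CPM against 117 and 111 CPM (0.46 ± 0.10, edgeR adjusted p = 0.0912). DESeq2 called both semaphorins, with adjusted p of 0.0109 and 0.0175.

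Slit3 and Efna5 were lower in both Bmal1-/- libraries than in any wild-type library without passing the test. Slit3 was at 68.9, 57.6 and 54.3 CPM against 40.7 and 45.0 CPM (-0.48 ± 0.13, adjusted p = 0.169). Efna5, a GPI-anchored ephrin, was at 25.7, 24.0 and 25.2 CPM against 19.2 and 16.3 CPM (-0.48 ± 0.13, adjusted p = 0.171). Efna1 lay the other way, at 9.98, 9.41 and 11.6 CPM against 14.2 and 14.8 CPM (0.50 ± 0.15, adjusted p = 0.214). Sema3b, at 4.31 to 6.02 CPM against 6.99 and 7.04 CPM, had an adjusted p of 0.350. Ntn5 (14.2 to 24.1 CPM against 11.3 and 13.5 CPM) had no overlap and an adjusted p of 0.338, and Robo3 (49.0 to 86.8 CPM against 78.2 and 115 CPM) overlapped between genotypes, with an adjusted p of 0.397. Across families, 0 of 20 semaphorins, 0 of 11 plexins and neuropilins, 0 of 8 ephrins, 1 of 14 Eph receptors, 0 of 3 Slits, 0 of 4 Robo receptors, 0 of 4 netrins and 0 of 5 netrin receptors were called. With 0.909% of all genes called, lists this short give no result about any family.

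**Figure D3:**
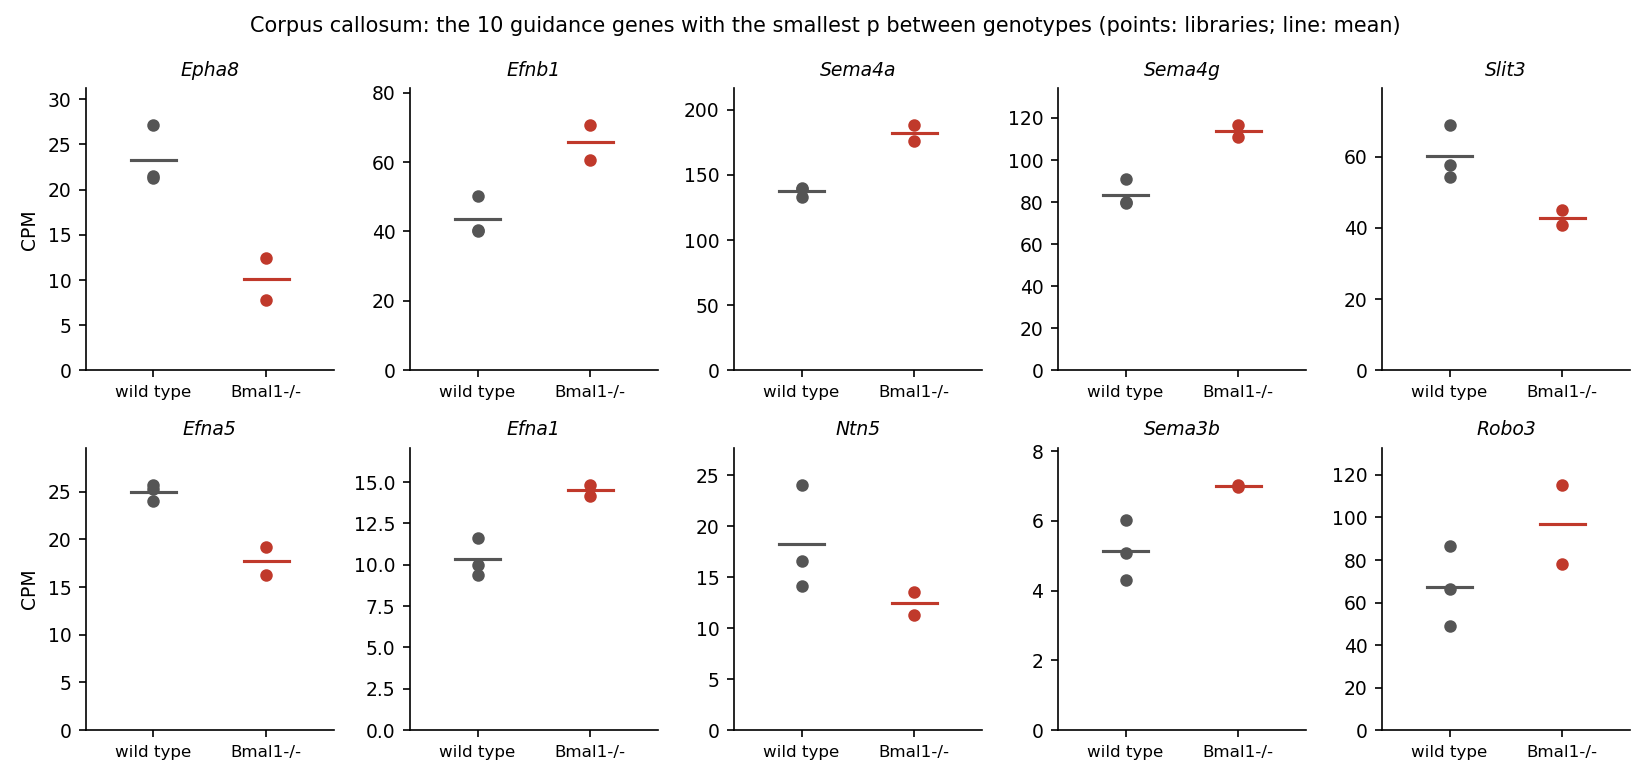
CPM of the 10 members with the smallest p between genotypes in corpus callosum, with wild type (n = 3) at the left and Bmal1-/- (n = 2) at the right of each panel; points are libraries, lines are group means, and each axis starts at 0. The genotypes do not overlap in 9 of the panels and overlap in that of Robo3; only Epha8 passed the test.

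In neurospheres the genotypes were compared in 62 members. The other 7 (Epha1, Epha6, Epha8, Ntn5, Robo4, Sema3g and Slit3) had too few counts. None of the 62 was called by edgeR, against 0.00716% of the 13968 genes tested. DESeq2 and limma-voom called 0 as well, against 34 and 2 of all genes tested. With so few calls over all genes, 0 members called gives no result about the family. At an unadjusted edgeR p under 0.05 there were 2, Efnb1 and Efnb2, which is 3.23% against 3.02% of all genes. Of the 62 fold changes 45 were below 0 and 17 above, and their median was -0.10 against -0.01 for all genes.

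The lean below 0 was largest in Bmal1-/- replicate 1. That library was the lowest of the 6 libraries for 36 of the 62 members. Relative to the wild-type mean, on the log2(CPM + 0.5) scale, the members' median was -0.353 in that library, 0.0918 in replicate 2 and -0.0478 in replicate 3. Guidance genes are long: the median transcript of the 62 was 5293 bases, against 3464 bases for all genes tested. In replicate 1, 31 of the 33 members longer than 5 kb were below the wild-type mean (93.9%, against 88.2% of all genes of that length), with a median of -0.851. Of the 29 shorter members 14 were below it, with a median of 0.00103. The members' Spearman correlation with length was -0.668 in this library (n = 62 genes) and -0.680 over all 13487 genes with a length, and for members it was -0.170 and 0.0673 in replicates 2 and 3. Over all genes it was -0.0564 in replicate 2 and -0.236 in replicate 3. In replicate 3, 61.7% of all genes longer than 5 kb were below the wild-type mean, against 43.1% of shorter ones, and of the members 18 of 33 and 16 of 29 were. These genes share a library and are not independent replicates. Robo1 shows the pattern, at 95.8, 111 and 117 CPM in wild-type and 29.8, 105 and 104 CPM in Bmal1-/- neurospheres, and Dcc was at 6.13, 10.5 and 14.7 against 2.97, 11.8 and 14.9 CPM. Without replicate 1 the members' median fold change was -0.02, and with offsets for length it was 0.04. Cell markers moved too: in replicate 1 the 10 microglia markers summed to 237 CPM, against 48.8 to 103 CPM in the 5 other libraries, and the 10 oligodendrocyte precursor markers to 3760 CPM, against 5275 to 6088 CPM. That library also had the lowest sums of mature neuron (541 CPM), astrocyte (4994 CPM), proliferation (766 CPM) and endothelial markers (5.62 CPM). In the 5 other libraries these were 758 to 912, 6228 to 6437, 1047 to 1427 and 11.4 to 13.7 CPM. The 10 stem and progenitor markers summed to 5159 to 6896 CPM in the 3 Bmal1-/- libraries, above the 4075 to 4910 CPM of wild type. Neuroblast markers (11) were at 429 to 452 CPM against 370.1 to 417 CPM, and mural cell and fibroblast markers (8) at 27.6 to 34.5 CPM against 17.4 to 22.4 CPM. These sums are weighted to their most abundant genes. Over the markers tested, the median log2 fold change was -0.02 for stem and progenitor cells and 0.29 for neuroblasts. For mural cells and fibroblasts it was -0.57, opposite in direction to their sum. It was 0.56 for microglia and -0.05 for oligodendrocyte precursors. No marker tested in these lists was called by edgeR, and their part and that of RNA quality were not tested.

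**Figure D4:**
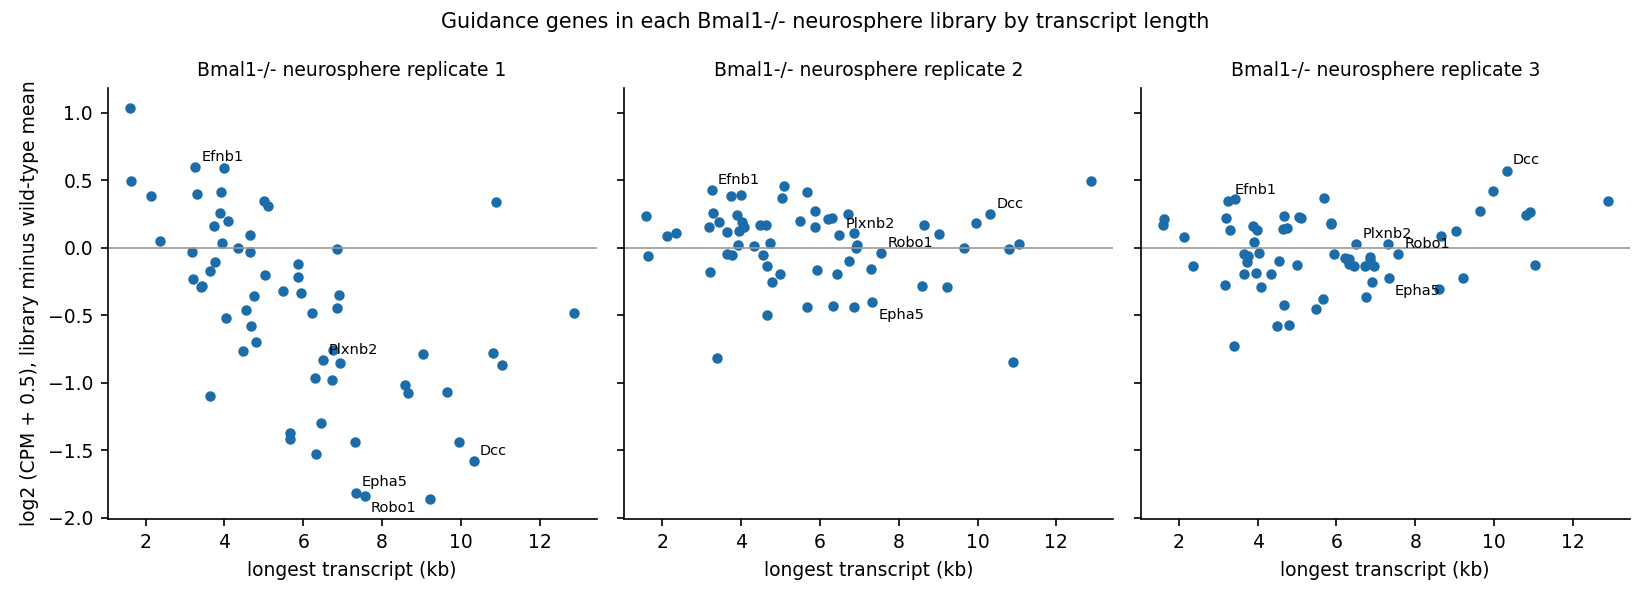
Level of each of the 62 members tested in the 3 Bmal1-/- neurosphere libraries, as log2(CPM + 0.5) minus the wild-type mean (y axis), against the length of its longest transcript in kb (x axis); points are genes. In replicate 1 the members longer than 5 kb have a median of -0.851, while replicates 2 and 3 scatter around 0 at each length.

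Efnb1 and Efnb2 are transmembrane ephrins known from neural progenitors, and their values lay in opposite directions. Efnb1 was at 37.0, 31.4 and 29.0 CPM in wild-type and 49.1, 43.7 and 41.3 CPM in Bmal1-/- neurospheres, with no overlap (0.46 ± 0.17, edgeR adjusted p = 0.798). Efnb2 was at 55.4, 38.7 and 44.0 CPM against 27.9, 38.1 and 30.4 CPM, also with no overlap (-0.52 ± 0.20). Without Bmal1-/- replicate 1 these were 0.38 and -0.43. The adjusted p was 0.798 for each of the 10 members with the smallest p.

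Of the semaphorins and netrin receptors, Sema3f and Unc5a were among those 10. Sema3f, a secreted ligand of neuropilin 2, was low, at 2.98, 1.78 and 1.89 CPM against 1.68, 1.02 and 1.11 CPM (-0.80 ± 0.35). It was -1.06 without Bmal1-/- replicate 1 and -0.52 without wild-type replicate 1. Unc5a was at 12.4, 11.1 and 11.3 CPM against 17.7, 15.3 and 12.7 CPM (0.40 ± 0.20, and 0.27 without Bmal1-/- replicate 1). The 6 others were receptors with fold changes below 0. Robo2 was at 46.2, 32.3 and 28.1 CPM against 16.96, 28.5 and 28.1 CPM (-0.54 ± 0.27), so only Bmal1-/- replicate 1 was clearly below the wild-type range. It was -0.34 without that library and -0.30 without wild-type replicate 1. Epha5 was at 59.4, 78.1 and 83.0 CPM against 20.3, 54.9 and 62.2 CPM (-0.68 ± 0.38). It moved to -0.33 without Bmal1-/- replicate 1, and Epha4 moved from -0.61 ± 0.35 to -0.30. Epha3 had 36, 23 and 29 counts against 4, 19 and 20 (-1.06 ± 0.53, and -0.62 without Bmal1-/- replicate 1). Epha7 (-0.42 ± 0.25) and Ephb1 (-0.40 ± 0.23) moved to -0.25 and -0.31 without that library, and Ephb1 to -0.22 without wild-type replicate 1.

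Groups did not overlap for 5 members that were higher in Bmal1-/- neurospheres (Efna2, Efnb1, Sema4c, Sema7a and Unc5a), 8.06% against 6.37% of all genes. For 4 that were lower (Efnb2, Epha3, Sema3f and Unc5d) it was 6.45% against 5.52% of all genes. Of the 62 members tested in both sources, Efna2 and Efnb1 were higher without overlap in both, 3.23% against 1.78% of the 12953 genes tested in both. Efnb2 was lower in both, 1.61% against 1.75%. Efna2, a GPI-anchored ephrin, was at 8.12, 7.46 and 7.95 CPM against 10.4, 8.35 and 8.31 CPM in neurospheres. In callosum it was at 36.0, 36.2 and 37.0 CPM against 39.8 and 39.98 CPM. Its fold changes were small, 0.20 ± 0.20 and 0.15 ± 0.11, with adjusted p of 0.798 and 0.557. Efnb2 in callosum was at 48.9, 42.3 and 39.3 CPM against 35.3 and 39.2 CPM, just below the wild-type range (-0.21 ± 0.13, adjusted p = 0.483). The 3 genes lie on chromosomes 10 (Efna2), X (Efnb1) and 8 (Efnb2).

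**Figure D5:**
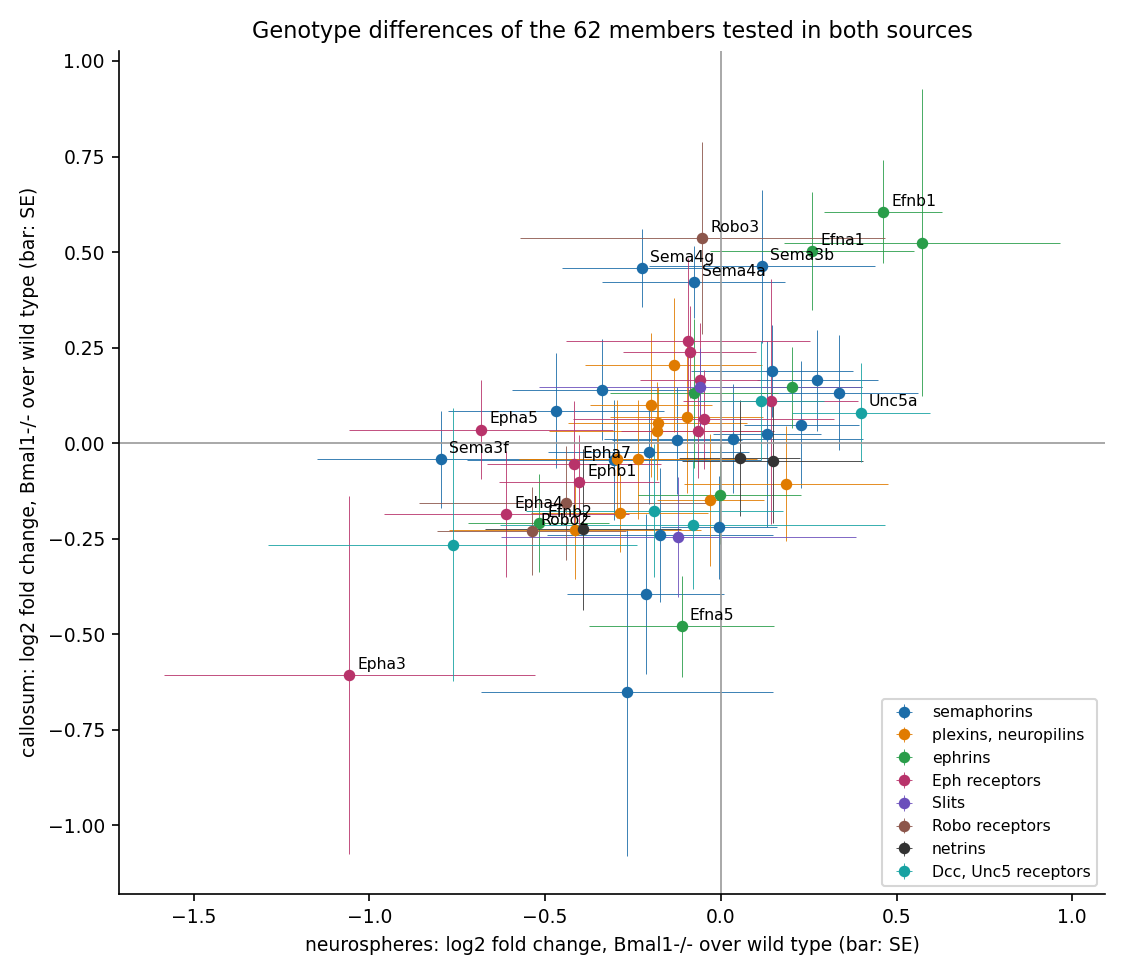
Log2 fold change, Bmal1-/- over wild type, of the 62 members tested in both sources, neurospheres on the x axis and corpus callosum on the y axis, with standard errors as bars and families in colour. Efnb1 lies at 0.46 and 0.61, and none of the 62 passed edgeR's test in either source.

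Whether genotype acted differently in the 2 sources was tested with an interaction term over the 11 libraries. It called 0 of 69 members with edgeR (0.0131% of the 15322 genes tested were called) and 0 with DESeq2 (0.241% of all genes). At an unadjusted p under 0.05 there was 1 member, Sema4g, which is 1.45% against 4.28% of all genes. Sema4g was at 75.4, 108 and 129 CPM in wild-type and 73.7, 97.9 and 95.02 CPM in Bmal1-/- neurospheres, opposite in direction to its callosum difference. Its interaction was 0.67 ± 0.28 on the log2 scale (unadjusted p = 0.0354, adjusted p = 0.999). The next were Sema3f (0.74 ± 0.35) and Robo4 (1.63 ± 0.89), the latter with few counts in neurospheres. Epha8, called in callosum, had 3, 2 and 2 counts in wild-type and 0, 4 and 0 in Bmal1-/- neurospheres, too few for its interaction to be read.

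A further 64 genes of the same pathways were read as a list: other ligands and adhesion partners, and the cytoplasmic proteins that pass the signal to the cytoskeleton. Between wild-type sources 33 of the 63 tested were higher and 25 lower in callosum. These are 52.4% and 39.7%, against 42% and 43.8% of all genes. L1cam, an axonal adhesion molecule that partners neuropilin 1, was higher by 8.13 ± 0.14, and Ngef, an exchange factor downstream of EphA receptors, by 7.12. Vav3, another Eph-linked exchange factor, was lower (-7.48 ± 0.30), as was Ptprz1, a receptor phosphatase of progenitors (-6.72 ± 0.18). Between genotypes 0 of 63 were called in neurospheres and 0 of 63 in callosum by edgeR, where 0.00716% and 0.909% of all genes were called. The smallest adjusted p in callosum was that of Chn1, the alpha-chimaerin that acts below EphA4, at 0.126 (-0.44 ± 0.11). The interaction called 0 of 64, against 0.0131% of all genes.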

How the data were processed

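Per the submitters' processing notes, reads were aligned with STAR 2.7.1a to mm10. No gene annotation was named (not given in the sources used here). Raw counts per gene, as the authors deposited them, were the starting values. Counts ignoring strand were used, since 49.6% to 50.8% fell on the first strand and the libraries were taken as unstranded. The 4 rows of unassigned reads entered neither library sizes nor tests. They held unmapped reads (7.77% to 22.6% of reads), reads outside genes (8.55% to 16.6%), ambiguous reads (0.772% to 1.40%) and reads with several alignments (listed at 0).

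Each comparison was fitted on its own libraries with edgeR 4.0.16 (TMM scaling, filterByExpr, robust quasi-likelihood F test), with Benjamini-Hochberg adjustment over all genes tested and calls at an adjusted p under 0.05. The interaction used all 11 libraries. The wild-type libraries are shared between the source comparison and the genotype comparisons. DESeq2 1.42.0 and limma-voom (limma 3.58.1) were alternatives, beside other scalings, no low-count filter, leaving out each library, a replicate block, length offsets, 1 model of all libraries and a striatal marker covariate. Lengths came from GENCODE M21 and positions and promoters from RefSeq (GRCm38.p6), matched for 69 of 69 members (lengths and positions). Of the members, 15 have an exon overlapped on the opposite strand, and 0 have over 10% of their 50-base stretches in another gene.

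Named members were, in each genotype comparison, those called and the 10 with the smallest p; between sources, the 10 called with the largest difference in each direction and the 5 highest per kb in each source; and for the interaction the 3 with the smallest p. Further members were named after their values were seen. The members, lists and rules were chosen with earlier results of these data known. Replicate pairs within groups differed by more than sampling noise (chi-square per degree of freedom 7.17 to 140.2). A gene at 0 in a library may lie at up to 3 counts, which covers counting error only. On simulated counts with 2-fold changes, the fits called 41.4% (neurospheres), 79.2% (callosum), 79% (source) and 17.5% (interaction) of changed genes. In the simulation few genes were changed, each gene's spread followed the trend over genes, and no library had a length trend. The real libraries differ in these points, so the rates are a rough guide only.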

Additional observations from a re-analysis of the deposited data

How the results depend on the processing

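The count of 1 member called between genotypes in callosum became 4 with DESeq2 (Efnb1, Epha8, Sema4a and Sema4g), 2 without a low-count filter and 2 with a replicate block (Efnb1 and Epha8 in both), 0 with limma-voom, 0 with 1 model of all 11 libraries and 0 with the striatal covariate. Leaving out 1 library gave 0 to 1. Epha8 kept its direction in the 15 alternatives and lost its call in 7 of them, and Efnb1 passed in 3 (adjusted p = 0.0115 with DESeq2, 0.0376 without a filter and 0.0393 with the block). In neurospheres and for the interaction, 0 members were called in each alternative run. Between sources 55 to 64 members were called. Efnb1 lost its source call without wild-type callosum replicate 3 (adjusted p = 0.0557), Ephb3 lost its in 5 alternatives and Sema5b in 4, and Unc5b passed in 5. The members' median fold change was -0.25 to -0.02 in neurospheres with 1 library left out and 0.04 with length offsets. For the interaction it was 0.15, and 0.01 without Bmal1-/- neurosphere replicate 1. Between sources it was 1.21, and 1.59 with length offsets. Over all genes, calls between genotypes in callosum were 129, 331 with DESeq2, 224 without a filter, 33 with 1 model of all libraries and 27 without wild-type replicate 3. With limma-voom they were 108, and with the striatal covariate 79. In neurospheres the calls over all genes were 1, 34 with DESeq2 and 19 with 1 model of all libraries.

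The labels do not say that replicate numbers pair the samples. In neurospheres, deviations of same-numbered libraries from their group means correlated at 0.280, -0.00937 and 0.308, and those of differently numbered libraries at -0.392 to 0.284. In callosum the same-numbered values were 0.0369 and 0.00505. There the deviations of the 2 Bmal1-/- libraries mirror each other, so the check cannot decide. Whether the numbers pair the samples was not settled. The block changed no other count of members called by over 1.5 times. Callosum had 2 Bmal1-/- libraries, so leaving 1 out assumes that the other varies like the wild-type group. In neurospheres a 2-fold difference would often be missed if libraries vary as in the simulated counts, which held no length trend.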
